A study of Mus musculus with 4 samples.

Results

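The comparison is between the liver of a mouse without Cyp27a1 and the liver of a mouse without both Cyp27a1 and the Cyp3a genes, so it describes loss of Cyp3a where Cyp27a1 is already missing. All genes whose average over the 4 libraries of the study reached 1 CPM (counts per 1e6 of the scaled library size) were taken, which gave 11743 of 33639 genes in the deposited table. The study made TruSeq RNA libraries from the livers of 4 male mice, 1 for each genotype. These were the wild type (WT), the knockout of Cyp27a1 (Cyp27a1 KO), the knockout of Cyp3a (Cyp3a KO) and the knockout of both (DKO). Both deletions were global, and the mice shared a chow diet without restriction, a light and dark cycle of 12 h each, and no other treatment. The labels give neither strain nor age, and the deleted Cyp3a gene is labelled with the human symbol Cyp3a4. Each library is 1 animal, so no difference has a replicate check, no test was run, and each statement compares 2 livers rather than 2 genotypes.

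Bile acids are made from cholesterol in hepatocytes by a classic pathway, which opens with the 7-alpha-hydroxylase CYP7A1, and by an alternative pathway, in which the mitochondrial sterol 27-hydroxylase CYP27A1 acts early. CYP27A1 also oxidises the side chain of intermediates of the classic pathway, and CYP3A enzymes hydroxylate the sterols and bile alcohols that accumulate when it is missing. The Cyp3a genes are induced by the xenobiotic receptors PXR and CAR, and cholesterol synthesis is controlled by the transcription factor SREBP2, which is activated when membrane sterols are low.

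The 2 libraries held 49980012 estimated counts in the Cyp27a1 KO and 50280651 in the DKO, and 1 count was worth 0.0201 and 0.0185 CPM. Levels below are CPM after TMM scaling, and where 4 values are listed they stand in the order WT, Cyp27a1 KO (also written as without Cyp27a1), Cyp3a KO (without Cyp3a) and DKO. Folds are ratios of CPM, and the interval after a fold is the exact 95% interval of the count ratio, which covers counting error only. A gene is called higher or lower in the DKO where its log2 fold, taken after adding 0.5 CPM, was at least 2-fold in size and that interval excluded 1. Cyp27a1 stood at 746 CPM in WT, 57.6 without Cyp27a1, 727 without Cyp3a and 65.3 in the DKO, so both livers compared carried its low level. The Y-linked genes Ddx3y and Eif2s3y, chosen after their values were seen, had 2762 and 1452 counts in the Cyp27a1 KO and 3410 and 1817 in the DKO, as the male label requires. Hepatocyte markers summed to 71516 CPM and 94453 CPM, with Alb at 3.78% and 7.08% of all counts and mitochondrial genes at 5.72% and 7.32%. Alb had a log2 fold of 0.79, but 5 of the 8 hepatocyte markers measured had a negative one, and the median was -0.16. None was called higher, and Serpina1c, at 6038 and 2974 CPM, was called lower, with a log2 fold of -1.02 by counts and -0.84 on TPM.

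Most genes differed little between the 2 livers. The median log2 fold was -0.008, and 85.5% of measured genes lay within 1.5-fold. In the DKO 333 genes (2.84%) were called higher and 304 (2.59%) lower, 5.42% in all. The lower genes were the more abundant ones. Together they took 13.3% of all counts in the Cyp27a1 KO and 2.38% in the DKO, whereas the higher genes took 1.97% and 6.47%. In the Cyp27a1 KO the lower genes summed to 133338 CPM. There the Mup genes and the Cyp3a family, most of them called lower, summed to 38392 and 25248 CPM. At 4-fold the counts were 91 higher and 79 lower, and at 16-fold 9 and 25. Through the DKO library alone 129 genes passed the abundance filter. Of the higher genes 69 were among them, so their calls rest on the library where they are high. In the same way 12 lower genes passed through the Cyp27a1 KO alone. Just inside the filter lay Tgif2, with a mean of 1.0015 CPM and a log2 fold of 0.11, and just outside it Tmem119, with a mean of 0.9991 CPM and a log2 fold of -0.38. On the deposited TPM, 303 of the 333 higher genes and 217 of the 304 lower genes were past 2-fold, and all of them had the same sign. TPM moved the median log2 fold of the measured genes to 0.162, and the split of calls from 52.3% higher to 65.6% higher. Scaling by library totals moved the median to 0.099 and the split to 61.4%. With a mean of at least 5 CPM 44.5% of calls were higher, and 46.0% with the filter taken over the 3 libraries other than the DKO. That last filter keeps the Cyp27a1 KO and leaves out the DKO. It therefore favours lower calls by its design and cannot check the balance.

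**Figure D1:**
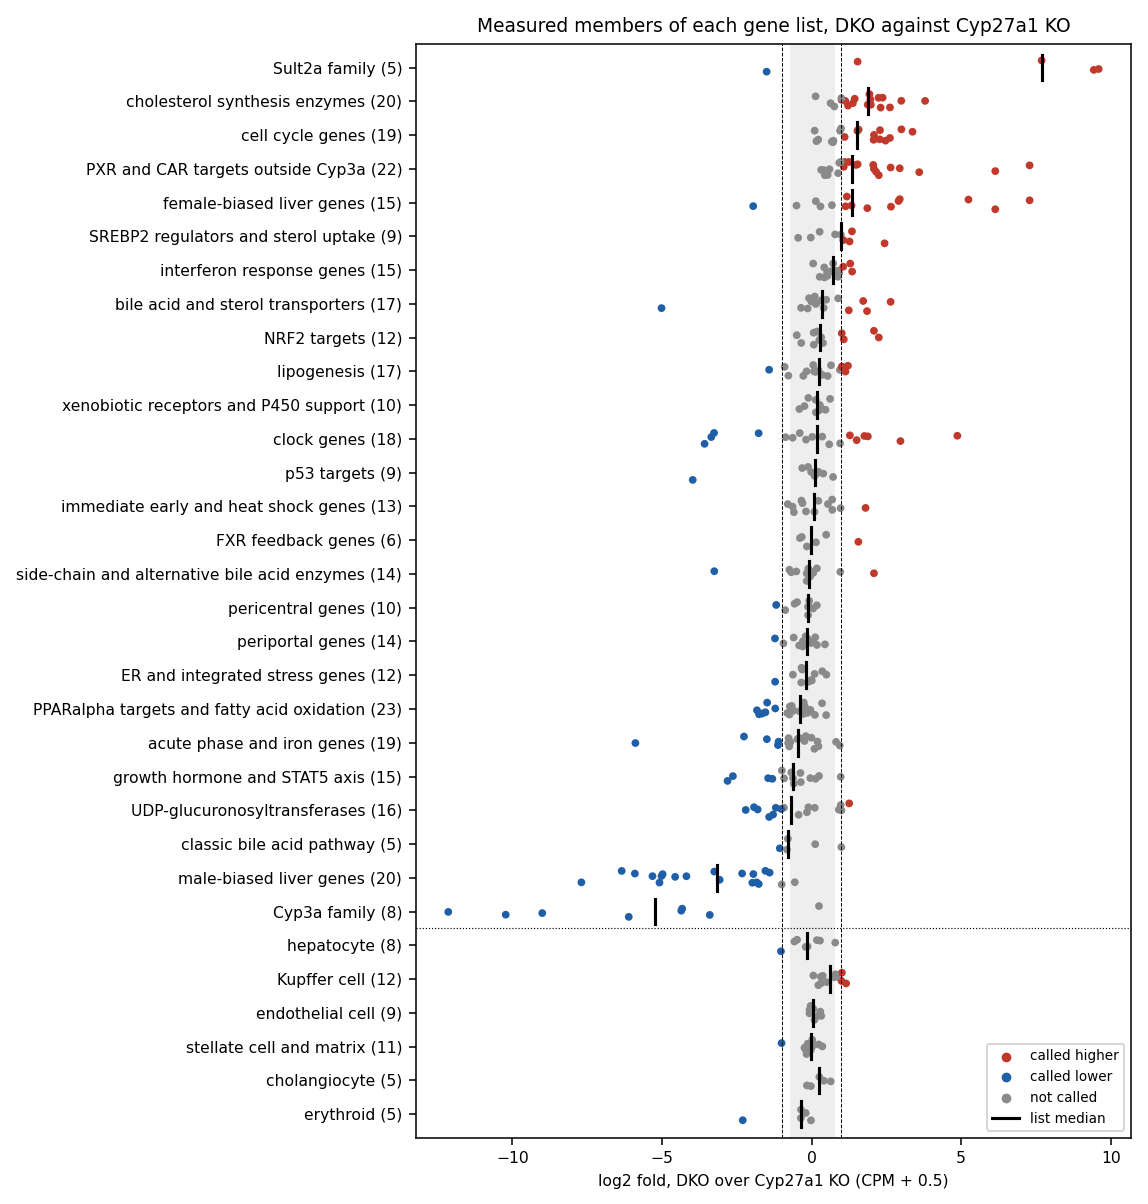
Log2 folds of the DKO over the Cyp27a1 KO (horizontal axis, CPM + 0.5) for the measured members of each gene list, with their number in parentheses. Points are genes, bars are list medians, dashed lines mark 2-fold, and the grey band spans the 5th to 95th percentile of all measured genes (-0.691 to 0.75). Cholesterol synthesis, PXR and CAR target, cell cycle and female-biased genes lie to the right, and male-biased and Cyp3a genes to the left. Marker lists of cell types stand below the dotted line.

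The Cyp3a genes themselves came first as the check of the deletion. Of 9 family members 8 were measured and 7 were called lower, and the ninth, Cyp3a57, stayed below the filter at 1.02 CPM in the Cyp27a1 KO and 0 counts in the DKO. Cyp3a11, the most abundant Cyp3a of mouse liver (mm10 chromosome 5, 145854426 to 145879964), had 8742 CPM in WT, 23706 without Cyp27a1, 0.160 without Cyp3a and 4.76 in the DKO. It was 4977-fold lower in the DKO than in the Cyp27a1 KO (4406 to 5645). On the TPM scale, which is per transcript length, Cyp3a11 was at 14207 and Cyp3a25 at 832 in the Cyp27a1 KO, so Cyp3a11 was by far the larger part of what was lost.

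Cyp3a25 went from 1013 CPM to 0.351 CPM and was 2888-fold lower (1849 to 4797). Cyp3a59 had 14104 counts in the Cyp27a1 KO and 3 in the DKO, a ratio of 5114 with a counting interval of 1749.5 to 24801. Cyp3a13, which lies apart from the other family members on the same chromosome, went from 216 to 2.64 CPM and was 81.8-fold lower (69.4 to 97.2). The 3 less abundant genes Cyp3a16, Cyp3a41b and Cyp3a44 had 0, 0 and 2 counts left in the DKO. Cyp3a16 was at least 172-fold lower and Cyp3a41b at least 86.3-fold lower, counting 0 as 3 counts per library. The exception was Cyp3a41a, at 2.12 CPM in WT, 4.46 without Cyp27a1, 0.0999 without Cyp3a and 5.39 in the DKO, with an uncalled log2 fold of 0.25. Cyp3a41a and Cyp3a41b are near-identical copies, so counts may have been split between them in either way. Summed, the family went from 25248 CPM to 13.2 CPM, 1908-fold lower (1773 to 2055).

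In the classic bile acid pathway 1 of 5 enzymes was called, against 5.42% of all measured genes. It was Cyp7a1, which was lower, and the call depended on the scaling. Cyp7a1, which controls the rate of the classic pathway (chromosome 4, 6265612 to 6275633), stood at 22.4 CPM in WT, 362 without Cyp27a1, 41.3 without Cyp3a and 173 in the DKO. The level in the DKO lay between that of the Cyp27a1 KO and those of the libraries with Cyp27a1, and was 2.09-fold lower than in the Cyp27a1 KO (2.04 to 2.14). With scaling by library totals its log2 fold was -0.95 instead of -1.06, outside the 2-fold rule. Cyp8b1, the sterol 12-alpha-hydroxylase that directs synthesis to cholic acid, was at 742 and 421 CPM in the Cyp27a1 KO and DKO (log2 fold -0.82, uncalled). Hsd3b7, which oxidises the 3-beta-hydroxyl of the 7-alpha-hydroxysterols, had 374 and 216 CPM (-0.79, uncalled). Akr1d1, the steroid 5-beta-reductase, stood at 310 and 619 CPM, just under the 2-fold line. Its log2 fold was 1.11 with library totals, where it was called higher and the list had 1 higher and 0 lower, and 1.18 on TPM, with 1 each. Akr1c6 had a log2 fold of 0.12.

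Among side-chain and alternative pathway enzymes, 2 of 14 measured were called, in opposite directions, against 5.42% of all measured genes. Cyp7b1, the oxysterol 7-alpha-hydroxylase that follows CYP27A1 in the alternative pathway (chromosome 3, 18071950 to 18243338), stood at 231 CPM in WT, 150 without Cyp27a1, 209 without Cyp3a and 15.4 in the DKO. Only the DKO was low, 9.78-fold below the Cyp27a1 KO (9.10 to 10.5). Cyp39a1, which hydroxylates 24-hydroxycholesterol (chromosome 17, 43667425 to 43751431), was at 99.7, 12.0, 13.4 and 52.7 CPM in the same order. Both single knockouts lay well below WT, and the DKO was 4.38-fold above the Cyp27a1 KO (4.01 to 4.79). The peroxisomal and conjugating enzymes of the list were uncalled. Their log2 folds ran from -0.74 for Slc27a2 and -0.68 for Scp2, through -0.16 for Baat, which joins bile acids to taurine, to 0.96 for the acyltransferase Acnat2. The log2 fold of Acnat2 ran from 0.79 to 1.07 over the scalings and TPM, on both sides of the 2-fold line. In the Cyp3a KO against WT Acnat2 was called lower, at -1.39. Cyp2c70, which makes muricholic acids in the mouse, was at 298 and 310 CPM.

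Most bile acid sensing and transport genes were uncalled, but so were most of all measured genes, of which 5.42% were called. Nr0b2, which encodes the repressor SHP, was at 16.3 CPM in WT, 7.87 without Cyp27a1, 46.3 without Cyp3a and 24.3 in the DKO, 3.08-fold higher in the DKO than in the Cyp27a1 KO (2.75 to 3.46). It was the 1 gene called of 6 in the FXR feedback list, whose receptor gene Nr1h4 (FXR) stood at 87.1 and 66.5 CPM. The bile salt export pump gene Abcb11 had an uncalled log2 fold of 0.49. Of 17 transporters 4 were called higher and 1 lower, against 2.84% and 2.59% of all measured genes. The lower one was Slco1a1, a sinusoidal uptake carrier with male-biased expression, at 341 CPM in WT, 78.2 without Cyp27a1, 478 without Cyp3a and 1.94 in the DKO, 40.3-fold lower (33.2 to 49.4).

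The cholesterol exporter subunits Abcg5 and Abcg8, which form 1 transporter, moved together. Abcg5 was at 63.7, 53.2, 84.4 and 194 CPM in the 4 libraries in that order, 3.64-fold higher (3.49 to 3.80), and Abcg8 was 3.32-fold higher (3.21 to 3.44). Abcb1a, a drug efflux pump, was 7.03-fold higher (5.98 to 8.30). Slc10a2, the sodium-dependent bile acid carrier that in liver is a cholangiocyte gene, was at 37.0, 32.8, 15.0 and 78.4 CPM, 2.39-fold higher in the DKO (2.26 to 2.53). Markers of cholangiocytes summed to 42.4 CPM in the Cyp27a1 KO and 48.2 in the DKO, and 0 of 5 measured were called.

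Enzymes of cholesterol synthesis stood higher as a block. All 20 of the list were measured, all had a positive log2 fold, and 16 were called higher, against 2.84% of all measured genes. Their median log2 fold was 1.90, with 1.88 on TPM, and their summed level was 1922 CPM in WT, 3870.5 without Cyp27a1, 4749 without Cyp3a and 11799 in the DKO. Hmgcs1, which makes HMG-CoA, was at 119, 198, 551 and 1589 CPM, and Idi1, the isopentenyl diphosphate isomerase, at 68.8, 229.6, 433 and 1139.7 CPM. In both the 4 libraries kept the same order, with WT lowest and the DKO highest. The fold was 8.01 for Hmgcs1 (7.85 to 8.18) and 4.96 for Idi1 (4.87 to 5.06).

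Later steps followed. Mvd, the mevalonate diphosphate decarboxylase, was 6.43-fold higher (5.83 to 7.10), and Lss, which closes the sterol ring, was 5.22-fold higher (5.03 to 5.42). Ebp (log2 fold 0.13), Tm7sf2 (0.64) and Sc5d (0.76), which act after that ring closure, were among those not called. In the pair of libraries with Cyp27a1 present, the Cyp3a KO against WT, 16 of the 20 were called higher too, with a median of 1.63, and 15 were called in both pairs.

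**Figure D2:**
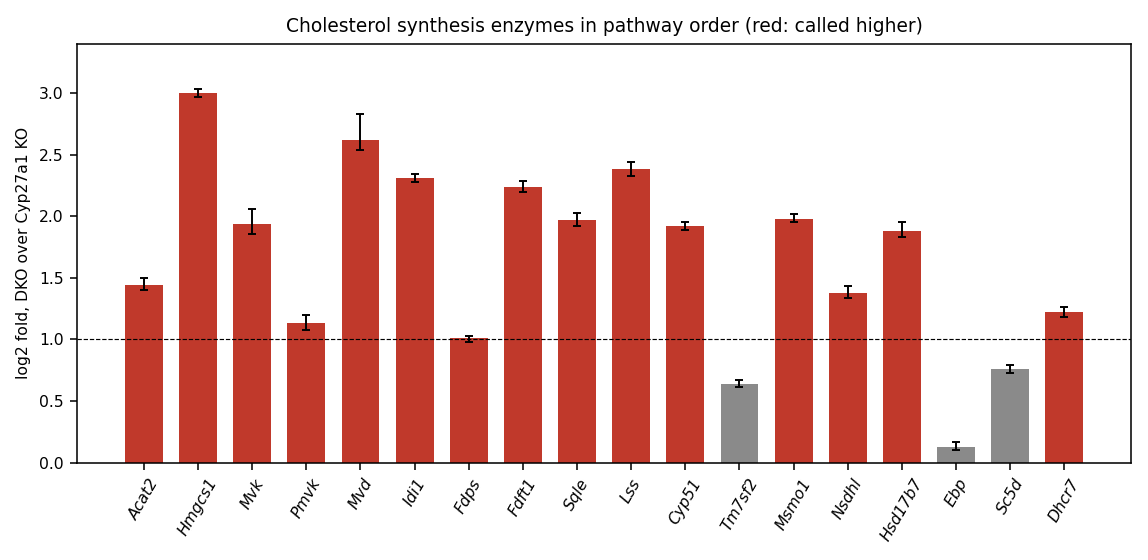
Log2 fold of the DKO over the Cyp27a1 KO (vertical axis, CPM + 0.5) for 18 of the 20 cholesterol synthesis enzymes in pathway order from left to right. Whiskers are exact 95% intervals of the count ratio, without the added 0.5 CPM, the dashed line marks 2-fold, red bars are called higher and grey bars are not. Hmgcs1 is the tallest of those drawn at 3.0, and the grey bars all lie to the right of Lss.

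Regulators of the same system were fewer in number past the rule. Of 9 measured genes of SREBP2 control and sterol uptake 4 were called higher and 0 lower, against 2.84% and 2.59% of all measured genes. The median log2 fold of the list was 0.98. Stard4, a cholesterol carrier, was 2.57-fold higher (2.46 to 2.68), Insig1, which holds SREBP in the endoplasmic reticulum, 2.42-fold higher (2.35 to 2.48), and Soat2, which esterifies cholesterol, 2.12-fold higher (1.96 to 2.29).

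The start regions of Hmgcs1 and Idi1 are shown because both genes stood far higher in the DKO. The windows run from 250 bases before to 50 bases after the gene start and come from RefSeq on GRCm38.p6. Capitals mark TCACNCCAC, the letters of 1 form of the sterol response element, and CCAAT, the letters of the NF-Y box, each on either strand, and no 2 matches overlap. Hmgcs1 lies at chr13:119690101-119690400 on the plus strand and Idi1 at chr13:8885356-8885655 on the plus strand.
Hmgcs1: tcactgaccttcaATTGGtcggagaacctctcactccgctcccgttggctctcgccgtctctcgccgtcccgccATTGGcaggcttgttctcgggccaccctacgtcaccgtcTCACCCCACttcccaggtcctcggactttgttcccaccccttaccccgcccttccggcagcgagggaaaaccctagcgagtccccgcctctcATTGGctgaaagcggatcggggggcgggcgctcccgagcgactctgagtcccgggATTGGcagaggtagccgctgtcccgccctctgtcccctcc
Idi1: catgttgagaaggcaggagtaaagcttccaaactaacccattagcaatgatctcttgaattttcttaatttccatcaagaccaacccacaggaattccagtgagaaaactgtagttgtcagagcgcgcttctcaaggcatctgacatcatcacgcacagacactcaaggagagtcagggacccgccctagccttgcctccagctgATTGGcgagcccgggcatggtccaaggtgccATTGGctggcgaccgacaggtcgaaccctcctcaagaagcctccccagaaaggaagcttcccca
The Hmgcs1 window holds both kinds of letters and the Idi1 window holds CCAAT alone. Among all 32851 promoter windows given by RefSeq, 1.24% held TCACNCCAC and 37.4% held CCAAT. A match is a description of the letters, not evidence of binding. Windows were at hand for 15 of the 20 cholesterol enzymes, too few for a share over the list. Of their 18 windows, that of Hmgcs1 was the 1 with TCACNCCAC, and 14 held CCAAT.

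Targets of PXR and CAR outside the Cyp3a family, enzymes and carriers of drug metabolism, were also higher together. All 22 measured of 24 had a positive log2 fold, with a median of 1.37 (1.54 on TPM). Of them 14 were called higher and 0 lower, against 2.84% and 2.59% of all measured genes. 2 of the 22 passed the abundance filter through the DKO alone. The list summed to 5741 CPM in WT, 16637 without Cyp27a1, 18505 without Cyp3a and 39837 in the DKO. The receptors themselves were near level: Nr1i2 (PXR) stood at 85.1 and 103 CPM in the Cyp27a1 KO and DKO, and Nr1i3 (CAR) at 92.2 and 114 CPM. The other pair also had 14 called higher and 0 lower, 10 of them the same genes.

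Cyp2b9 and Cyp2b13, female-biased cytochrome P450 genes near each other on chromosome 7, had the largest folds of the list. Cyp2b9 had 14 counts in WT, 5 without Cyp27a1, 4 without Cyp3a and 5051 in the DKO, 929-fold higher than in the Cyp27a1 KO (398 to 2861). Cyp2b13 had 5, 5, 2 and 2266 counts, 417-fold higher (178 to 1284). Both were close to absent from 3 libraries and present in the DKO alone. Their RefSeq start regions are shown because the pair moved together and their sequences are so alike that reads may be shared between them. The windows lie at chr7:26173159-26173458 and chr7:26061245-26061544 on the plus strand, and capitals mark the bases that differ.
Cyp2b9: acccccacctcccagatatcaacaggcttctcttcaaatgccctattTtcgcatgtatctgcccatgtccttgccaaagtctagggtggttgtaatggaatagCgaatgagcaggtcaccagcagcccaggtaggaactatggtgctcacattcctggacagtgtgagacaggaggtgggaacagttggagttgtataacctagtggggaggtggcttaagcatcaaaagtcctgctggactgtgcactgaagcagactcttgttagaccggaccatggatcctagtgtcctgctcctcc
Cyp2b13: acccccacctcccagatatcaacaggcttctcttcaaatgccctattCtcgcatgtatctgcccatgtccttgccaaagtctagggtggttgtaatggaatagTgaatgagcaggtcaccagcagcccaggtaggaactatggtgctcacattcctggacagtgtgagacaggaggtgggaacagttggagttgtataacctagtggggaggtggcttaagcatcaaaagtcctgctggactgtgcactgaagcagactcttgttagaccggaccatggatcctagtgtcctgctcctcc
The windows are 99.3% identical over 300 bases. Counted from 1 at the 5′ end of the window, with Cyp2b9 first, the 2 differences are T48C and C104T.

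Akr1b7, an aldose reductase-like enzyme, was at 1.16, 4.26, 5.19 and 57.2 CPM in the 4 libraries in that order, 13.4-fold higher (11.7 to 15.5). Sult1e1, the estrogen sulfotransferase, was at 0.450, 3.07, 0.0999 and 27.1 CPM, 8.81-fold higher (7.45 to 10.5). The glutathione transferase gene Gstm3 was at 51.3 CPM in WT, 1512 without Cyp27a1, 1504 without Cyp3a and 7182 in the DKO. Here both single knockouts already stood above WT and the DKO stood above both, 4.75-fold over the Cyp27a1 KO (4.71 to 4.79). Gstm3 and Gsta1, which was 4.26-fold higher (4.13 to 4.41), are also members of the NRF2 list. In that list 4 of 12 measured genes were called higher, against 2.84% of all measured genes. The other 2 called were Gstm1 (2.11-fold, 2.10 to 2.12) and the sulfiredoxin gene Srxn1 (2.03-fold, 1.92 to 2.14). On TPM Srxn1 had a log2 fold of 0.85, under the rule.

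Conjugating enzymes split. Sult2a enzymes sulfate bile acids and hydroxysteroids, and most are female-biased in mouse liver. Of 8 family members 5 were measured, 2 of them through the DKO alone. In the family 4 were called higher and 1 lower, against 2.84% and 2.59% of all measured genes. Sult2a1 (chromosome 7, 13796246 to 13837409) had 119 counts in WT, 22 without Cyp27a1, 1 without Cyp3a and 39439 in the DKO. It was 1648-fold higher in the DKO than in the Cyp27a1 KO (1088 to 2630.1). Sult2a2 had 100, 18, 6 and 32219 counts and was 1646-fold higher (1041 to 2777), and Sult2a5 had 22, 6, 1 and 6907 counts and was 1058-fold higher (486 to 2885). As with Cyp2b9, these transcripts were scarce in every library but the DKO, and their near-identical sequences make the split of counts among them uncertain. With the filter taken over the other 3 libraries 2 of the family were called higher in place of 4.

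Sult2a7 behaved otherwise, at 0.622 CPM in WT, 53.7 without Cyp27a1, 68.5 without Cyp3a and 157 in the DKO, 2.93-fold higher (2.80 to 3.06). Sult2a8, a bile acid sulfotransferase, was at 509, 427, 803 and 151 CPM and 2.83-fold lower (2.76 to 2.91). The UDP-glucuronosyltransferase list also holds Ugdh, a UDP-glucose dehydrogenase. Of the 16 genes in this list 7 were called lower and 1 higher, against 2.59% and 2.84% of all measured genes. The median log2 fold of the list was -0.68. With library totals, and also on TPM, 6 were lower and 4 higher. Ugt2b38 was 5.34-fold lower (4.41 to 6.50), Ugt1a6a 3.83-fold lower (3.64 to 4.03) and Ugt3a1 3.53-fold lower (3.32 to 3.75). Ugt2b1 went from 1183 to 443 CPM, 2.67-fold lower (2.63 to 2.71). In the Cyp3a KO against WT 0 of the 16 were called lower and 1 was called higher.

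Genes with male-biased liver expression were lower in the DKO. All 20 were measured, all had a negative log2 fold, and 18 were called lower, against 2.59% of all measured genes, with a median of -3.16 (-2.58 on TPM). The list summed to 62974 CPM in WT, 18586 without Cyp27a1, 41290.1 without Cyp3a and 2797 in the DKO. The 2 uncalled genes were Cyp2d9 (log2 fold -0.56) and Cyp2u1 (-1.0, just short of the line). In the Cyp3a KO against WT the list had 3 called higher and 2 lower and a median of 0.03.

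Mup7, which encodes a urinary pheromone carrier (chromosome 4, 60066469 to 60070475), was at 28047 CPM in WT, 3649.6 without Cyp27a1, 20285 without Cyp3a and 17.2 in the DKO, 212-fold lower (199 to 227). The Mup genes are near-identical, so the sum is safer: 21 Mup genes together were at 91477, 38392, 79920.1 and 2440.1 CPM, 15.7-fold lower in the DKO than in the Cyp27a1 KO (15.6 to 15.8). Of single members, 20 of 21 were called lower, among them Mup15 (50.4-fold lower, 47.4 to 53.7), Mup1 (42.7-fold lower, 38.5 to 47.4) and Mup11 (34.1-fold lower, 32.9 to 35.4). The Cyp27a1 KO was itself below WT in this group, and the DKO was lower still.

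Elovl3, a fatty acid elongase, was at 802, 428, 361 and 4.78 CPM, 89.6-fold lower (79.2 to 102). Serpina1e, an alpha-1-antitrypsin gene, was at 10558, 5437, 6080 and 90.4 CPM, 60.1-fold lower (58.5 to 61.9). Hsd3b5, a steroid reductase of male liver, was at 27.6 CPM in WT, 10.9 without Cyp27a1, 139 without Cyp3a and 0.129 in the DKO, 84.4-fold lower (40.7 to 211). Its level was thus highest with Cyp3a alone deleted and lowest with both deleted. Cyp7b1 and Slco1a1, given above, belong to the same list.

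Female-biased genes were mostly on the other side. Of 15 measured, with a median log2 fold of 1.34, 10 were called higher and 1 lower, against 2.84% and 2.59% of all measured genes. 2 passed the filter through the DKO alone, and Cyp2b9, Cyp2b13 and Sult1e1 are shared with the PXR and CAR list. Atp6v0d2, a proton pump subunit, was at 0.944, 10.7, 4.31 and 83.5 CPM, 7.80-fold higher (7.13 to 8.55). The lower one was Cyp17a1, the steroid 17-alpha-hydroxylase, at 26.2, 8.13, 2.56 and 1.74 CPM, 4.69-fold lower than in the Cyp27a1 KO (3.74 to 5.93). In the other pair the list had 4 higher and 2 lower, with a median of 0.04.

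Growth hormone acts through STAT5 to set the sex bias of liver genes. Of 15 measured members of that axis 4 were called lower and 0 higher, against 2.59% and 2.84% of all measured genes. Socs2, a feedback inhibitor, was at 7.85 CPM in WT, 34.4 without Cyp27a1, 7.97 without Cyp3a and 4.49 in the DKO, 7.66-fold lower (6.70 to 8.80). Onecut1, a liver transcription factor, was at 20.4, 71.1, 10.2 and 11.1 CPM, 6.41-fold lower (5.88 to 7.0). For both genes it was the Cyp27a1 KO that stood above the other 3 libraries. Cish was 2.80-fold lower (2.56 to 3.07), with a log2 fold of -1.45 by counts and -2.10 on TPM. Igfbp3 was 2.56-fold lower (2.30 to 2.85). Igfals, at 57.8 and 28.8 CPM, and Prlr, at 59.6 and 118 CPM, fell just short of the rule in either direction, and with library totals or on TPM 1 member was called higher.

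**Figure D3:**
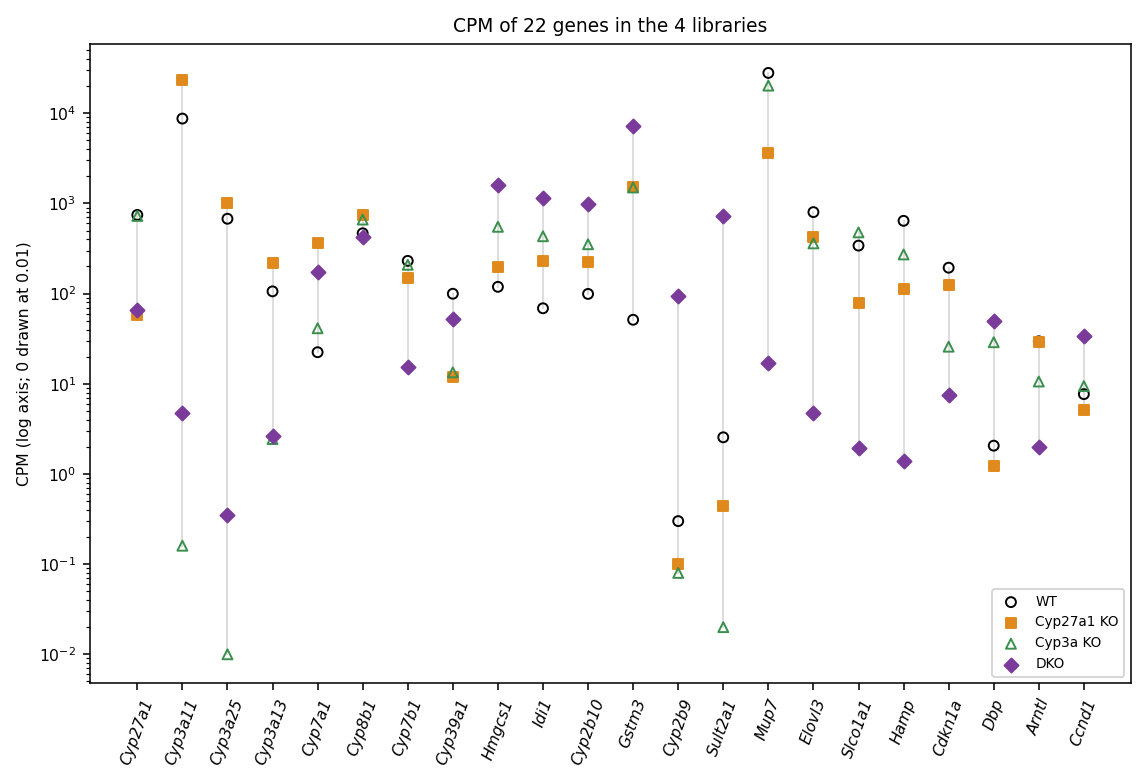
CPM (vertical log axis, with 0 drawn at 0.01) of 22 genes in the 4 libraries, 1 point per library and gene. The DKO (purple diamonds) is highest for Hmgcs1, Sult2a1 and Cyp2b9 and lowest for Mup7, Elovl3, Slco1a1 and Hamp, and Cyp3a11 and Cyp3a25 lie low in both Cyp3a-deleted libraries.

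Clock genes, which cycle through the day, differed in both directions. Of 18 measured, 6 were called higher and 4 lower, against 2.84% and 2.59% of all measured genes. Dbp, a transcription factor that peaks late in the light phase, had 96 counts in WT, 61 without Cyp27a1, 1448 without Cyp3a and 2710 in the DKO, 40.8-fold higher (31.7 to 53.5). Per3, a period gene, was 9.24-fold higher (7.66 to 11.2). Arntl, which encodes the activator BMAL1 and cycles opposite to Dbp, was at 29.6, 28.9, 10.6 and 1.98 CPM, 14.6-fold lower (12.0 to 18.0). Npas2 was 32.7-fold lower (17.6 to 69.0) and Nfil3 10.8-fold lower (9.76 to 12.1). The log2 fold of Npas2 was -3.26 by counts and -2.12 on TPM. WT and the Cyp27a1 KO lay close together for Dbp and Arntl, and the 2 libraries without Cyp3a lay on the other side. The labels do not give the hour of tissue collection, so a difference in that hour and the genotype cannot be told apart, for these genes or for others that cycle, such as Elovl3 and Cyp7a1.

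Cell cycle genes were higher from low levels. All 19 were measured and had a positive log2 fold, and 11 were called higher, against 2.84% of all measured genes. However, 6 of the 19 passed the filter through the DKO alone, where they are high, which makes the count a description only. With the filter taken over the other 3 libraries 5 were called higher. The list summed to 60.5 CPM in WT, 51.2 without Cyp27a1, 55.5 without Cyp3a and 141 in the DKO. Cdc20, which activates the anaphase-promoting complex, had 13 counts in WT, 12 without Cyp27a1, 10 without Cyp3a and 389 in the DKO, 29.8-fold higher (16.9 to 58.2). Ccnb1, cyclin B1, had 9, 11, 11 and 286 counts, 23.9-fold higher (13.2 to 48.4). Ccnd1, cyclin D1, was at 7.68, 5.12, 9.43 and 34.1 CPM, 6.65-fold higher (5.83 to 7.61). Cdc20 and Ccnb1 are among the 6 that could pass only by being high in the DKO, and Ccnd1 is not. Cdkn1a, the cell cycle inhibitor p21, was at 194 CPM in WT, 126 without Cyp27a1, 25.8 without Cyp3a and 7.55 in the DKO, 16.6-fold lower (15.0 to 18.4). It was the 1 gene called among 9 measured p53 targets, and Mdm2, at 25.6 and 20.5 CPM, was not called.

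Fat metabolism genes differed by less. Among 23 genes of fatty acid oxidation and PPARalpha response, with a median log2 fold of -0.39, 6 were called lower and 0 higher. Over all measured genes the shares were 2.59% lower and 2.84% higher. Cyp4a14, a fatty acid omega-hydroxylase, was at 2185 CPM in WT, 325 without Cyp27a1, 582 without Cyp3a and 116 in the DKO, 2.80-fold lower (2.72 to 2.88). Vnn1, a pantetheinase, was 3.69-fold lower (3.32 to 4.12), Cyp4a10 3.14-fold lower (3.08 to 3.20) and the acyl-CoA thioesterase gene Acot1 2.94-fold lower (2.78 to 3.10). Of 17 lipogenic genes 4 were called higher and 1 lower. Fasn, the fatty acid synthase, went from 205 to 477 CPM, 2.33-fold higher (2.27 to 2.38), and Acss2, which makes acetyl-CoA, was 2.20-fold higher (2.16 to 2.24). Elovl6 and Acaca lay near the line, at 2.04-fold (1.97 to 2.12) and 2.03-fold (1.95 to 2.12), and were not past it under every scaling. Me1, the malic enzyme, was 2.67-fold lower (2.60 to 2.75).

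Of 19 acute phase and iron genes 5 were called lower and 0 higher, against 2.59% and 2.84% of all measured genes. On TPM 3 of the list were lower and 2 higher. Hamp, which encodes the iron hormone hepcidin, was at 642 CPM in WT, 112 without Cyp27a1, 272 without Cyp3a and 1.40 in the DKO, 79.8-fold lower (63.6 to 101). The DKO level was far below that of the other 3 libraries. Orm2, an acid glycoprotein, was 5.06-fold lower (4.52 to 5.68) and Apcs, serum amyloid P, 2.86-fold lower (2.66 to 3.09). Id1, a target of the same BMP signal as Hamp, went from 4.22 to 1.70 CPM, 2.48-fold lower (1.93 to 3.21), a call that did not hold under every scaling.

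Pericentral and periportal zonation genes had median log2 folds of -0.12 and -0.16. Few members of the next 4 lists were called, but so were few of all measured genes (2.84% higher and 2.59% lower). Of 10 pericentral genes only Rhbg was called, 2.29-fold lower (2.14 to 2.46; a log2 fold of -0.99 on TPM), and of 14 periportal genes only G6pc, the glucose-6-phosphatase, 2.33-fold lower (2.29 to 2.37). Of 12 stress genes of the endoplasmic reticulum and the integrated stress response only Asns was called, 2.42-fold lower (2.14 to 2.74), and of 13 immediate early and heat shock genes only Atf3, 4.13-fold higher (3.31 to 5.19). That last list had 7 of 13 called higher in the Cyp3a KO against WT.

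Markers of other cell types were compared in the same 2 libraries, in which 2.84% of all measured genes were called higher and 2.59% lower. All 12 Kupffer cell markers had a positive log2 fold, with a median of 0.63, and 3 were called higher: Marco (2.39-fold, 2.02 to 2.83), Adgre1 (2.03-fold, 1.87 to 2.21) and Cd5l (2.03-fold, 1.94 to 2.12). Marco and Adgre1, and among the genes named next Ifi44 and Csf3r, were not past 2-fold under every scaling. The sum was 353 CPM in WT, 376 without Cyp27a1, 238 without Cyp3a and 543 in the DKO, and Clec4f, a defining Kupffer cell gene, was at 78.4 and 91.8 CPM. In whole liver, more cells of a type and more RNA per cell cannot be told apart. Of 15 interferon response genes measured 12 were not called and 3 were called higher (5 on TPM), and all 15 log2 folds were positive, with a median of 0.72. The called genes were Ifit1 (2.84-fold, 2.34 to 3.47), Usp18 (2.59-fold, 2.25 to 3.0) and Ifi44 (2.54-fold, 1.87 to 3.48). The part of the Kupffer cell markers in these values was not tested.

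Endothelial markers (0 of 9 called, sums of 288 and 302 CPM) and stellate and matrix genes (1 of 11 lower, 208 and 203 CPM) were close to level. The stellate gene was Acta2, at 1.65 and 0.572 CPM, whose log2 fold was -1.0 by counts and -0.82 on TPM. Of 8 T and NK cell markers 0 were measured, and they summed to 2.51 and 2.57 CPM. Erythroid genes had 1 of 5 called, Alas2, which starts haem synthesis in red cells. It went from 146 to 29.2 CPM, 4.98-fold lower (4.72 to 5.26). All 5 log2 folds were negative, with a median of -0.35, and the sum went from 448 to 280.2 CPM. The globin genes were uncalled, from -0.02 for Hba-a1 (59.0 and 58.2 CPM) to -0.36 for Hba-a2. Of 6 neutrophil markers 1 was measured, Csf3r, with 2.23 CPM in the DKO and 0.863 in the Cyp27a1 KO. It passed the filter through the DKO alone, so the filter itself favoured a higher value there.

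The remaining genes with the largest folds belong to none of the lists. AW822252, annotated as a pseudogene, was at 2.81 CPM in WT, 1.79 without Cyp27a1, 964 without Cyp3a and 611 in the DKO, 342-fold higher (278 to 426). It was present in both Cyp3a-deleted libraries and nearly absent from the others. Rpl10-ps1, a ribosomal protein pseudogene, had 0 counts in 3 libraries and 1484 in the DKO, at least 455-fold higher, and its reads may belong to a parent gene. Scd2, a stearoyl-CoA desaturase, was at 3.99, 4.22, 3.10 and 50.1 CPM, 11.9-fold higher (10.3 to 13.7). On the lower side, Scara5, a ferritin receptor, was at 58.0, 23.1, 10.4 and 0.185 CPM, 125-fold lower (67.7 to 261), with a log2 fold of -5.11 by counts and -3.93 on TPM. The pseudogene Serpina4-ps1 had 0 counts in the DKO against 23.2 CPM in the Cyp27a1 KO, at least 419.5-fold lower.

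Loss of Cyp3a was also measured where Cyp27a1 was intact, in the Cyp3a KO and WT libraries, which are not the 2 libraries compared above. In that pair 301 genes (2.56%) were called higher and 219 (1.86%) lower, 4.43% in all. Higher in both pairs were 89 genes, 26.7% of the 333 and 29.6% of the 301. Lower in both were 68, 22.4% of the 304 and 31.1% of the 219, and 43 genes were called in opposite directions. Across the 11743 genes the log2 folds of the 2 pairs correlated with a Pearson r of 0.341 and a Spearman rho of 0.241, where genes are not independent replicates. Of the cholesterol synthesis list 15 of 20 genes were called higher in both pairs, and of the PXR and CAR list 10 of 22. The medians of the male-biased, female-biased and cell cycle lists were 0.03, 0.04 and -0.07 in the pair with Cyp27a1. The difference between the pairs was not tested, as each genotype has 1 library.

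**Figure D4:**
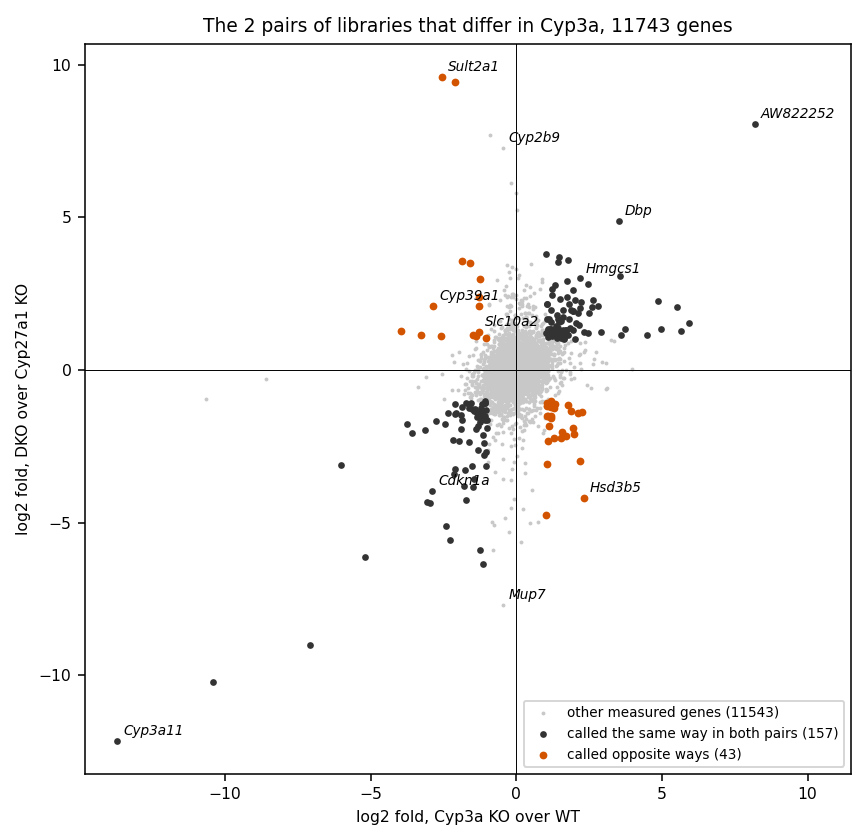
Log2 fold of the DKO over the Cyp27a1 KO (vertical axis) against log2 fold of the Cyp3a KO over WT (horizontal axis), both of CPM + 0.5, for 11743 genes. Dark points (157) share their call between the pairs and orange points (43) are called opposite ways. Cyp3a11 lies far to the lower left and AW822252 to the upper right, Sult2a1 is orange at the top, and Mup7 lies near 0 on the horizontal axis.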

How the data were processed

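RNA from the livers of 4 male mice, each of another genotype, was sequenced. Estimated counts for each gene symbol (57.7% whole numbers, rounded here) and TPM were deposited by the authors in separate tables. Per the submitters' processing notes kallisto 0.43.1, HISAT2 2.0.5, Trimmomatic 0.33 and the mm10 build were used, without their roles being stated, and the sources used here do not say which tool gave the values. The tables order their columns differently, and headers were used to match them. Of the gene symbols 32114 matched 1 gene of GENCODE release M21 for coordinates, and 1 row that names no gene held 0 counts.

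Counts were scaled with TMM factors of 0.937 to 1.08 (edgeR 4.0.16, R 4.3.3) to CPM. Log2 folds are of CPM plus 0.5, which understates folds of low genes. Intervals are exact conditional binomial (Clopper-Pearson) at 95%, and a count of 0 was set to 3 counts. Without molecular identifiers reads are not separate molecules, and these intervals and floors therefore hold counting error alone. With 1 library per genotype no test was run. The scripts were tested on simulated data with known folds.

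The members, the 26 pathway and 9 marker lists, and the calling rule were chosen with earlier results of these data known. Genes named are all measured Cyp3a and bile acid enzymes, the 12 largest and 12 smallest called folds with a mean of at least 5 CPM (predicted genes passed over), up to 5 per other list by size of fold, and the 6 largest in each direction called opposite in the 2 pairs. Some were left out for length, a few are not reported here, and genes named as uncalled or contrary members of a list, or as a list's defining or control gene, were picked with their values known. The alternatives tried were other scalings (library totals, DESeq2 1.42.0 size factors), TPM, filters, pseudocounts of 0.1 and 2, and a 4-fold rule.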

Additional observations from a re-analysis of the deposited data

Results flagged for a closer look

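18 named genes were called in opposite directions in the pair on the Cyp27a1-null background and in the pair with Cyp27a1. With 1 library per genotype the difference was not tested for any of them. The 2 sulfotransferase genes had the widest gap: Sult2a1 had a log2 fold of 9.60 on the Cyp27a1-null background and -2.55 with Cyp27a1 present, and Sult2a2 had 9.43 and -2.09. Bile acid genes in the set were Cyp39a1 (2.09 and -2.85) and the carrier Slc10a2 (1.25 and -1.27). Also higher on the null background and lower with Cyp27a1 were Ppl, which encodes periplakin (2.09 and -1.29), the Kupffer cell gene Marco (1.16 and -1.48), and the predicted genes Gm16867 (3.56 and -1.86) and Gm9800 (3.50 and -1.59), the latter with 0 counts in both single knockouts.

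The reverse pattern, lower on the null background and higher with Cyp27a1, was led by the male-biased Hsd3b5 (-4.18 and 2.31). The thyroxine-binding globulin gene Serpina7 had -2.16 and 1.72, the pantetheinase gene Vnn1 -1.82 and 1.12, and the serum amyloid P gene Apcs -1.49 and 1.09. Asns had -1.22 and 1.20, and Acta2, at under 2 CPM in every library, -1.0 and 1.18. The stress ligand gene Raet1d had -2.09 and 2.0, Dct -2.02 and 1.57, Xlr3a -1.91 and 1.94, and the pseudogene Rpl17-ps8 -2.99 and 2.18.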

How the results depend on the processing

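Each genotype is 1 animal, so differences between individual mice or in the hour of collection cannot be told apart from the genotype. No paired analysis was possible because each genotype has 1 library, and for the same reason no library could be left out. No gene named and called changed sign in the alternatives run, but among uncalled genes Acnat1, Acox2, Amacr, Baat, Cyp46a1, Des, Hba-a1, Klb, Lyve1, Slc27a5 and Sox9 changed sign with the scaling or on TPM. Requiring a mean of at least 5 CPM left 181 genes higher in place of 333 and 226 lower in place of 304, and a pseudocount of 2 left 25 genes called opposite ways in the 2 pairs in place of 43. The 4-fold rule gave 91 higher and 79 lower, 27 called the same way and 5 opposite ways in both pairs, and 33 list members higher and 28 lower in place of 77 and 59. With the filter taken over the 3 libraries other than the DKO, a choice made after seeing the data, 264 genes were higher and 310 lower. Lower genes outnumbered higher ones under both filters. The filter without the DKO keeps the Cyp27a1 KO, so it favours lower calls by its design and cannot check the balance. TPM recentred on the count median, also added after seeing the data, gave 339 and 334. Called genes that lost the 2-fold mark under some scaling or on TPM were Acaca, Acta2, Adgre1, Csf3r, Cyp7a1, Elovl6, Hamp2, Id1, Ifi44, Marco, Rhbg, Serpina1c and Srxn1. Medians of the FXR feedback, side-chain and alternative bile acid, immediate early and heat shock, pericentral, stellate and B cell lists changed sign with the setting. The cause of these shifts was not tested.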

Other observations

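Gene families were grouped by symbol after their values were seen, and some overlap with the lists above. Several Cyp2c, glutathione transferase and carboxylesterase genes belong to the PXR and CAR list, and Cyp2a4 to the female-biased list. Over all measured genes 2.84% were called higher and 2.59% lower. Of 13 measured Cyp2c genes 6 were called higher and 0 lower in the DKO against the Cyp27a1 KO, and of 4 Cyp2a genes 3 were higher, led by Cyp2a4, a female-biased steroid hydroxylase, at 0.408 CPM in WT, 1.93 without Cyp27a1, 1.10 without Cyp3a and 14.8 in the DKO. Of 11 guanylate-binding protein genes, which are induced by interferon, 3 were higher, with Gbp11 at 0.879, 3.35, 2.04 and 27.9 CPM. Of 18 glutathione transferase genes 5 were higher and 2 lower, and Gstp1, which is male-biased in mouse liver, was the lowest of them at 2374, 982, 1685 and 320.4 CPM.

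Carboxylesterases split, with 1 of 14 higher (Ces2a, log2 fold 1.25) and 5 lower, Ces1b the lowest at -2.07. Hsd17b6, a steroid and retinol dehydrogenase, was at 73.4 CPM in WT, 60.3 without Cyp27a1, 411 without Cyp3a and 431 in the DKO, so the 2 livers without Cyp3a lay together above the other 2. Organic anion transporters of the Slc22 family had 2 higher and 3 lower of 12, from Slc22a28 (-3.38) to Slc22a26 (2.09). Of 74 ribosomal protein genes 1 was called, with a median log2 fold of -0.26 by counts and -0.08 on TPM. Of 45 genes of the Nduf series, subunits and assembly factors of respiratory complex I, 0 were called, and of 19 collagen genes 1 was lower, Col27a1, at 27.4 and 4.69 CPM in the Cyp27a1 KO and DKO.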
